A study of Danio rerio with 16 samples.

Results

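The lens crystallin and lens fibre genes described here are crybb1, cryba4, bfsp2 and gja8b of the zebrafish (Danio rerio). They were chosen by name, with earlier results of these data known, so counts of calls among them only describe them. Each was read by 1 Affymetrix probe set whose only gene symbol in the platform annotation is that gene, which makes 4 probe sets of the 15502 on the array apart from controls, or 4 of 8793 gene symbols. Total RNA was measured on 16 arrays. At 36 h, 6 arrays are labelled foggy mutant and 4 wild type, with embryonic brain as the described material and no allele or strain named. The other 6 arrays hold 12-somite embryos that received an injection of an RNA named Foggy(DelCter) (3 arrays) or of a control RNA (3 arrays). Foggy is the zebrafish mutant of supt5h, the gene of the DSIF subunit Spt5, a factor of transcription elongation. Nothing in the labels tells separate clutches from repeat preparations, so the p-values below rest on a spread between arrays that may be technical only.

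The vertebrate lens is built of an epithelium and of fibre cells, which elongate, fill with soluble crystallin proteins and later lose their nuclei. Beta crystallins such as those made from crybb1 and cryba4 are structural proteins of the fibre cell, and gamma crystallins are their close relatives. Bfsp2 encodes phakinin, which with filensin forms the beaded filament, an intermediate filament of lens fibres. Gja8b encodes a connexin of the gap junctions that couple fibre cells. In the RefSeq annotation crybb1 and cryba4 are direct neighbours, with acads before crybb1 and grk3 after cryba4, whereas gja8b and bfsp2 lie on other chromosomes. At the 12-somite stage lens fibre cells have not yet formed.

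The 36 h arrays fall into 2 sets that follow the numbers in their titles, numbers 1 to 3 (3 labelled foggy, 1 wild type) and numbers 4 to 6 (3 and 3), and every result is therefore given by set. The targeted gene supt5h had 40.1, 47.0 and 38.6 intensity units in foggy arrays 4 to 6, against 197, 231 and 166.5 units in wild-type arrays 4 to 6. In numbers 1 to 3 it had 258, 245 and 254 units in the arrays labelled foggy, against 210 units in wild-type array 1. Genotype is known from the labels alone in both sets, and the supt5h level was not used as a test of it. Background was read from 17 tag control probe sets that are built to match no zebrafish transcript. Their highest level was 34.4 units in numbers 1 to 3, 26.9 units in numbers 4 to 6 and 23.9 units at the 12-somite stage, and values at or below it are called within the tag range. As a check of the material, 7 neuron marker genes summed to at least 895 units in every 36 h array. The 6 yolk layer and liver genes summed to 31355 to 36976 units in numbers 4 to 6 but 529 to 607 units in numbers 1 to 3. The 12-somite embryos had 12632 to 23028 units, below numbers 4 to 6. Brain as the material of numbers 4 to 6 thus rests on the description, and these sums do not bear it out. The number of arrays limits the precision.

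In numbers 4 to 6, both beta crystallin transcripts were clearly present in the wild type and lay at the upper edge of the background or within it in the foggy mutant. Crybb1 had 16.2, 8.74 and 17.5 units in foggy arrays 4, 5 and 6, against 282, 264 and 331 units in wild-type arrays 4, 5 and 6. All 3 foggy values lay within the tag range and the groups did not overlap. The difference in log2(intensity + 16) was -3.19 ± 0.16 (SE, limma adjusted p = 4.04e-06), and against the highest tag control, taken as the upper limit of the foggy values, the fall was at least 10.8-fold. Cryba4 had 24.3, 26.9 and 17.5 units in foggy arrays 4, 5 and 6, against 190, 177 and 513 units in wild-type arrays 4, 5 and 6. The value of foggy array 5 was level with the highest tag control, the others lay below it, all 3 were above the highest tag control of their own array, and the groups did not overlap. Cryba4 fell by 2.65 ± 0.32 on the log2(intensity + 16) scale (SE, limma adjusted p = 0.000767), which was 11.4-fold as measured and at least 9.58-fold with foggy values set no lower than the highest tag control.

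The other lens fibre genes were dim in these 6 arrays. Gja8b had 22, 2.04 and 4.82 units in foggy arrays 4, 5 and 6, against 41.9, 18.4 and 50.6 units in wild-type arrays 4, 5 and 6. Only wild-type arrays 4 and 6 exceeded the tag range, and foggy array 4 lay above wild-type array 5. The connexin gene was called lower (log2 difference -1.06 ± 0.31, SE, limma adjusted p = 0.0424). With foggy values set to the highest tag control the fold was 1.26. That is no lower limit, because wild-type array 5 itself lay within the tag range. That call was lost with no filter on dim probe sets (limma adjusted p = 0.0743), with an intensity trend in the prior (0.0531), without foggy array 5 (0.131) and without foggy array 6 (0.115). Without wild-type array 4, wild-type array 6 or foggy array 4, gja8b did not pass the filter on dim probe sets and was not tested. Bfsp2 had 8.14, 2.1 and 3.29 units in foggy arrays 4, 5 and 6, against 8.78, 11.3 and 14.1 units in wild-type arrays 4, 5 and 6. All 6 values of the beaded filament gene lay within the tag range, and bfsp2 did not pass the filter on dim probe sets, so it was not tested there.

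Of the 4 genes, 3 were tested in numbers 4 to 6 and all 3 were called lower. Over all 10851 probe sets tested in that comparison 10.4% were called lower. Among those 3, foggy values lay wholly below wild-type values for crybb1 and cryba4 but not for gja8b, as they did for 18.3% of tested probe sets. Because crybb1, cryba4 and gja8b all passed the filter through the wild-type arrays, where they are higher, these counts are fixed in part by the filter and only describe the genes. Fewer lens cells in a sample, including less eye tissue in the material taken, and less RNA per lens cell cannot be told apart. Whether all of the signal of these genes came from lens cells was not tested.

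**Figure D1:**
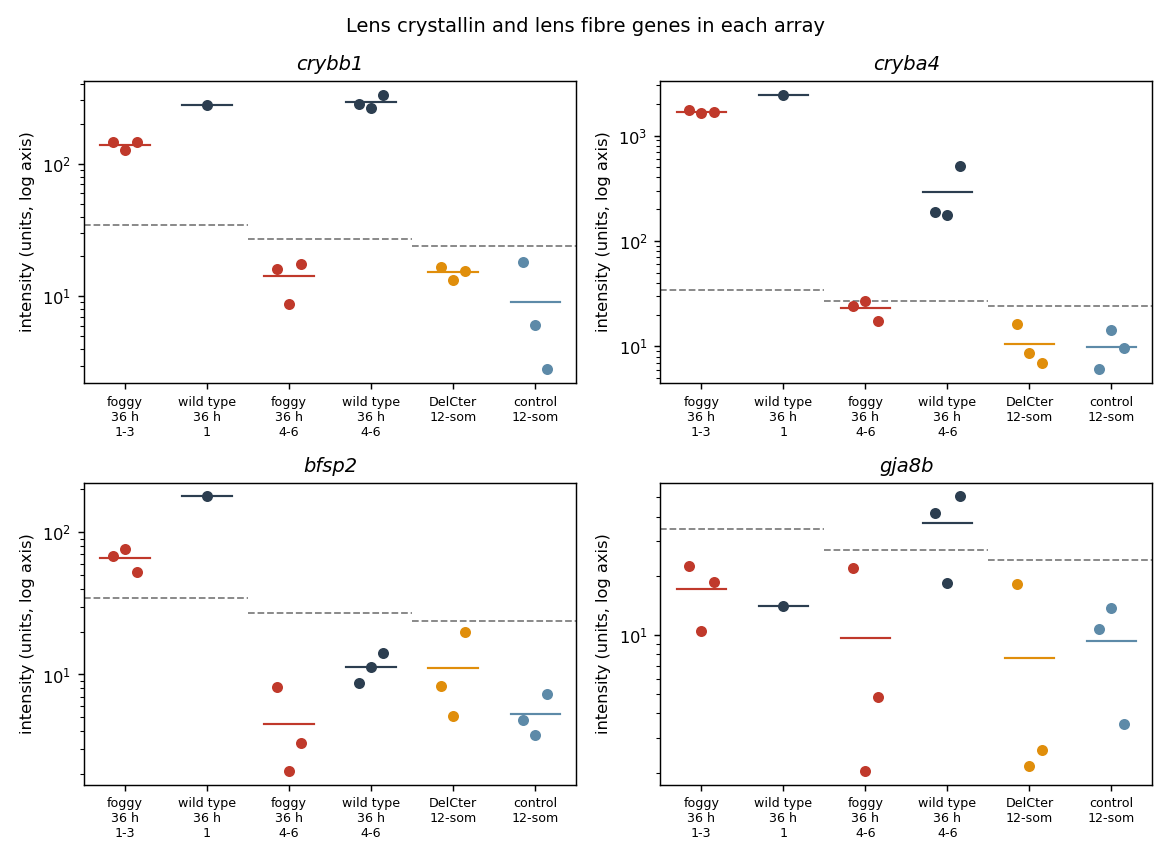
Intensity of crybb1, cryba4, bfsp2 and gja8b in each of the 16 arrays (units, log axis), with 1 point per array, a short line at the group mean and a dashed line at the highest tag control of each set of arrays. Crybb1 and cryba4 are high in all 4 wild-type arrays and in the arrays labelled foggy numbered 1 to 3, and lie at or near the dashed line or below it in foggy arrays 4 to 6 and in all 12-somite arrays, while bfsp2 exceeds it only in numbers 1 to 3 and gja8b only in wild-type arrays 4 and 6.

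The 3 wild-type arrays of numbers 4 to 6 were not alike. Array 6 had the highest level of all 4 lens genes, and its cryba4 level was 2.70 times that of array 4, the higher of the other arrays. Crybb1 in array 6 was 1.18 times the higher of the other arrays. The summed level of the 7 fast muscle markers was also highest in array 6, at 30451 units against 18086 and 17789 units in arrays 4 and 5. The 5 pigment markers summed to 2385 units there, against 1572 and 1372 units, and the 5 red blood cell markers to 16597 units, against 11965 and 12077 units. Their part in the lens levels was not tested. Without wild-type array 6, cryba4 still fell, by 2.19 ± 0.13 on the log2(intensity + 16) scale (SE, limma adjusted p = 5.92e-05), and crybb1 by 3.10 ± 0.17 (limma adjusted p = 2.45e-05).

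In numbers 1 to 3 the same genes were read at other levels, and the arrays labelled foggy retained them. Crybb1 had 145, 127 and 146 units in foggy-labelled arrays 1, 2 and 3, against 277 units in wild-type array 1. Cryba4 had 1750, 1626 and 1682 units in foggy-labelled arrays 1, 2 and 3, against 2436 units in wild-type array 1. All 3 arrays labelled foggy lay below the single wild-type array for both beta crystallins, at a mean of 50.2% and 69.2% of it. The log2 difference of crybb1 was -1.01 ± 0.20 (SE, limma adjusted p = 0.0527) and did not pass the threshold, although it did with a pseudocount of 64 (0.00491), with an intensity trend (0.0294) and with a filter at the 60th percentile (0.0451). That of cryba4 was -0.56 ± 0.41 (SE, limma adjusted p = 0.703, 95% interval -1.46 to 0.34).

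Bfsp2 was above background only in numbers 1 to 3. It had 67.9, 76.1 and 52.7 units in foggy-labelled arrays 1, 2 and 3, against 179 units in wild-type array 1. The fall of 1.41 ± 0.21 on the log2(intensity + 16) scale passed the test (SE, limma adjusted p = 0.0118), and it passed in each other setting in which it was tested. Gja8b had 22.5, 10.4 and 18.6 units in foggy-labelled arrays 1, 2 and 3, against 14.0 units in wild-type array 1, all within the tag range. It did not pass the filter and was not tested. Of the 3 genes tested, 1 was called lower, against 0.673% of tested probe sets (0.728% in either direction). All 3 were lower in all 3 arrays labelled foggy than in the single wild-type array, as were 28.2% of tested probe sets. The wild type of this set is 1 array, whose spread was taken from the other groups, so no value here can be given without it.

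The size of the foggy effect differed between the sets for both crystallins. For crybb1 the effect in numbers 4 to 6 minus that in numbers 1 to 3 was -2.18 ± 0.25 on the log2 scale (SE, limma adjusted p = 0.00121). For cryba4 it was -2.09 ± 0.50 (limma adjusted p = 0.0474), a call that was lost without any one of the 6 arrays labelled foggy (limma adjusted p = 0.0709 to 0.0936) and in 4 other settings. Over all tested probe sets 2.4% were called lower in this contrast, and 2 of the 3 genes tested were. Crybb1 and cryba4 passed the filter through the groups in which they are high, so that count only describes them. For numbers 1 to 3 the contrast rests on wild-type array 1 alone, which could not be left out. Bfsp2 went the other way at 0.97 ± 0.26 (limma adjusted p = 0.0663), not passing, with no level above background in numbers 4 to 6. The foggy arrays of numbers 4 to 6 are also those with low supt5h, and the sets differ in many other transcripts, so that number set and supt5h level cannot be told apart here.

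Over all 10 arrays at 36 h, without regard to set, no lens gene passed. Crybb1 differed by -2.12 ± 0.55 on the log2(intensity + 16) scale (SE, limma adjusted p = 0.198) and cryba4 by -0.78 ± 1.5 (limma adjusted p = 0.924). With the replicate number as a block, crybb1 fell by 2.63 ± 0.34 (limma adjusted p = 0.00292) and cryba4 by 2.12 ± 0.39 (limma adjusted p = 0.0141). That fit left out foggy-labelled arrays 2 and 3, whose numbers have no wild-type array. With the number set as a block, crybb1 fell by 2.46 ± 0.31 (limma adjusted p = 0.000605), cryba4 by 1.95 ± 0.36 (0.00536) and bfsp2 by 0.76 ± 0.18 (0.0173). Without a block, 0.221% of tested probe sets were called and 9.24% had an unadjusted p under 0.05, as had 1 of the 3 genes tested, crybb1.

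**Figure D2:**
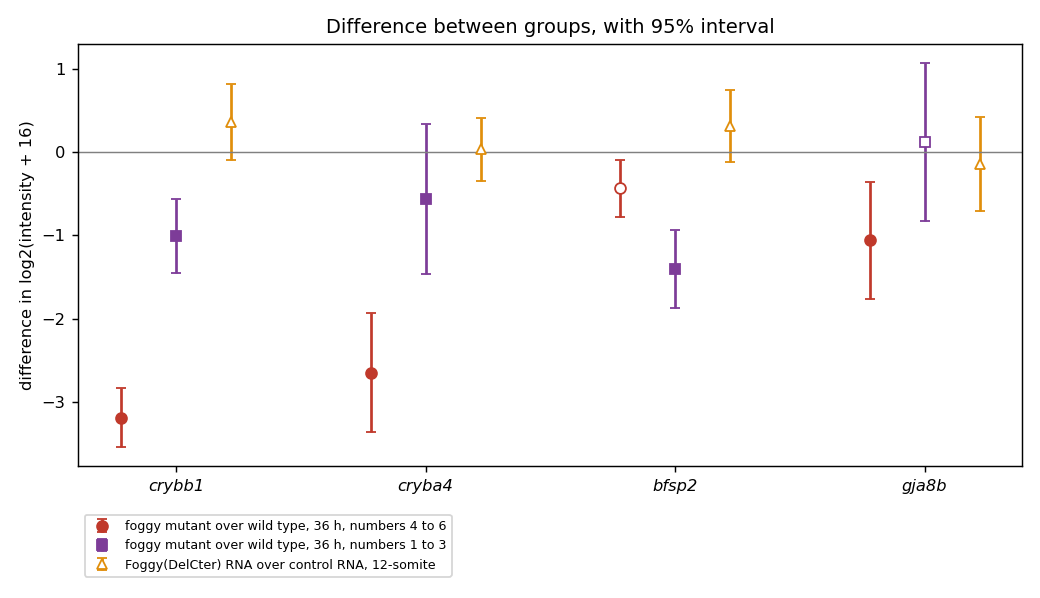
Difference in log2(intensity + 16) of the 4 lens genes in 3 comparisons, with bars for the 95% interval of limma's estimate, where filled symbols passed the filter on dim probe sets and open symbols did not. Crybb1 and cryba4 are at -3.19 and -2.65 in numbers 4 to 6 and at -1.01 and -0.56 in numbers 1 to 3, and the 4 open triangles of the 12-somite comparison all have intervals that include 0.

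Lens transcript levels differed between the sets among arrays labelled foggy and, for some genes, in the wild type. Among arrays labelled foggy, crybb1 was higher in numbers 1 to 3 than in numbers 4 to 6 (log2 difference 2.12 ± 0.14, SE, limma adjusted p = 1.24e-07, at least 5.16-fold). Cryba4 was higher by 5.40 ± 0.29 (limma adjusted p = 1.73e-08, at least 62.6-fold) and bfsp2 by 1.70 ± 0.15 (limma adjusted p = 1.17e-06, at least 2.41-fold). All 3 genes tested were called higher, where 33.6% of all tested probe sets were, and as they passed the filter through the groups in which they are high, that count only describes them. In the wild type the picture was uneven between genes. Wild-type array 1 had 0.949 times the mean crybb1 level of wild-type arrays 4 to 6, inside their range, but 8.31 times their mean cryba4 level. Its bfsp2 level was 15.7 times their mean, with arrays 4 to 6 within the tag range. Its gja8b level was 0.378 times their mean, with array 1 within the tag range. The wild-type difference between the sets has 1 array on one side and was not tested.

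Ordered by mean level, crybb1 was highest in wild-type arrays 4 to 6 (292 ± 34.7 units, SD, n = 3), then in wild-type array 1, whose value lay within that spread, and then in foggy-labelled arrays 1 to 3 (139 ± 10.9, n = 3). Foggy(DelCter) embryos (15.2 ± 1.72), foggy arrays 4 to 6 (14.1 ± 4.74) and control RNA embryos (9.04 ± 8.14, n = 3 each) followed within the tag range, and the range of the control embryos, 2.82 to 18.3 units, took in all values of the Foggy(DelCter) embryos and of foggy arrays 4 to 6. Cryba4 was highest in wild-type array 1, then in foggy-labelled arrays 1 to 3 (1686 ± 62.2 units, n = 3), wild-type arrays 4 to 6 (293 ± 190, n = 3) and foggy arrays 4 to 6 (22.9 ± 4.88, n = 3). Last came the Foggy(DelCter) and control embryos (10.6 ± 4.99 and 9.96 ± 4.07, n = 3 each), whose ranges overlapped. The order of the 36 h groups thus was not the same for the neighbouring crystallin genes.

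At the 12-somite stage none of the 4 genes exceeded the tag range in any array. Crybb1 had 16.7, 13.3 and 15.5 units in Foggy(DelCter) embryos, against 18.3, 6.04 and 2.82 units in control RNA embryos. Cryba4 lay between 6.94 and 16.3 units in Foggy(DelCter) embryos, against 6.08 and 14.2 units in control RNA embryos. The ranges of all 4 genes overlapped between the groups, and none passed the filter. Without the filter limma called none of them, with differences between -0.14 for gja8b and 0.36 for crybb1 and adjusted p-values from 0.369 upward. None of the 4 had an unadjusted p under 0.05 either. In that comparison 11.3% of tested probe sets were called and 25.9% had an unadjusted p under 0.05.

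Wild-type arrays 4 to 6 at 36 h differed from the 12-somite control RNA embryos in stage and in described material together. Crybb1 was higher at 36 h by 3.66 ± 0.20 (SE, limma adjusted p = 2.10e-07), at least 12.1-fold, and cryba4 by 3.42 ± 0.32 (limma adjusted p = 8.53e-06), at least 10.8-fold. Gja8b was higher by 1.03 ± 0.24 (limma adjusted p = 0.00359), at least 1.41-fold. All 3 genes tested were called higher, where 24.7% of all tested probe sets were, but all 3 were within the tag range at the 12-somite stage and passed the filter through the 36 h arrays, so that count only describes them. Bfsp2 was within the tag range in both groups.

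Of a list of further lens structural genes, 14 had a probe set of their own, and most of them were at background. The 14 include crybg1a and crybg1b, taken in by their name, which carry a crystallin-like domain but are not lens fibre proteins, and without them the list has 12 genes. In foggy arrays 4 to 6, 12 of the 12 lay within the tag range, against 11 of 12 in wild-type arrays 4 to 6. In the arrays of numbers 1 to 3 labelled foggy 9 of 12 did, against 7 of 12 in wild-type array 1. The alpha crystallin genes cryaa and cryaba, which encode small heat shock proteins of the lens, stayed within the tag range in all 16 arrays, at no more than 34.1 units.

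The gamma crystallin genes that could be read repeated the split between the sets. Crygmxl2 had 7.72, 2.68 and 2.53 units in foggy arrays 4, 5 and 6, against 27.0, 26.4 and 117 units in wild-type arrays 4, 5 and 6. Wild-type array 6 again stood above the others, the only one clearly above the tag range. Of these 12 genes crygmxl2 alone passed the filter there, through the wild-type arrays, and it was called lower, as were 10.4% of tested probe sets (log2 difference -1.63 ± 0.35, SE, limma adjusted p = 0.0136). Against the highest tag control its fold was 1.62, no lower limit because wild-type array 5 lay within the tag range. In numbers 1 to 3 it had 1177, 1109 and 1132 units in foggy-labelled arrays 1, 2 and 3, against 2204 units in wild-type array 1. Crygm2c had 180, 179 and 195 units in foggy-labelled arrays 1, 2 and 3, against 306 units in wild-type array 1, but at most 16.6 units in numbers 4 to 6. Lctla, whose mouse counterpart is a lens protein, had 41.3, 36.1 and 35.5 units in foggy-labelled arrays 1, 2 and 3, against 88.6 units in wild-type array 1, and at most 5.65 units in numbers 4 to 6.

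Of the 12 genes, 2 were tested in numbers 1 to 3, crygmxl2 and crygm2c, and neither was called by limma. Crygm2c had an unadjusted p under 0.05, as had 10.3% of tested probe sets. Crybg1a had 183, 168 and 323 units in foggy arrays 4, 5 and 6, against 192, 217 and 179 units in wild-type arrays 4, 5 and 6, and those groups overlapped.

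Transcription factors that act in lens formation, most of which also act in retina, brain or neural crest, moved less. Of 12 with a probe set, 11 were tested in numbers 4 to 6, where 7 fell, 1 rose and 3 did not pass. The background there was 10.4% lower and 9.03% higher, and the median log2 difference of the factors was -0.43 against 0.06 over all tested probe sets. Prox1a, a homeobox factor of fibre cell elongation in the mouse, had 22.7, 14.4 and 22.1 units in foggy arrays 4, 5 and 6, against 37.5, 42.6 and 36.1 units in wild-type arrays 4, 5 and 6. Its foggy values were within the tag range, and prox1a fell by 0.55 ± 0.13 (SE, limma adjusted p = 0.0204). As its wild-type values were above that range, the filter may fix part of the count of factors that fell. Pax6a, a paired-box factor needed for eye formation, had 133, 130 and 119 units in foggy arrays 4, 5 and 6, against 211, 189 and 222 units in wild-type arrays 4, 5 and 6.

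Pax6a fell by 0.60 ± 0.11 on the log2(intensity + 16) scale (SE, limma adjusted p = 0.00653) and its duplicate pax6b by 0.43 ± 0.12 (0.0359). The cofactor gene eya1 fell by 0.59 ± 0.13 (limma adjusted p = 0.0132), tfap2a by 0.51 ± 0.11 (0.0124), meis2b by 0.53 ± 0.13 (0.0186) and meis2a by 0.37 ± 0.11 (0.0365). Six3a, a homeobox factor of the eye field and forebrain, was the 1 that rose, with 160, 172 and 133 units in foggy arrays 4, 5 and 6, against 96.7, 118 and 103 units in wild-type arrays 4, 5 and 6 (log2 difference 0.47 ± 0.12, limma adjusted p = 0.029). In numbers 1 to 3 none of the 12 passed limma's test, and 3 had an unadjusted p under 0.05, as had 10.3% of tested probe sets. At the 12-somite stage 2 of 11 fell in Foggy(DelCter) embryos, against 7.55% of tested probe sets, namely six3a by 0.89 ± 0.13 (limma adjusted p = 0.00201) and meis2a by 0.73 ± 0.16 (limma adjusted p = 0.0136).

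**Figure D3:**
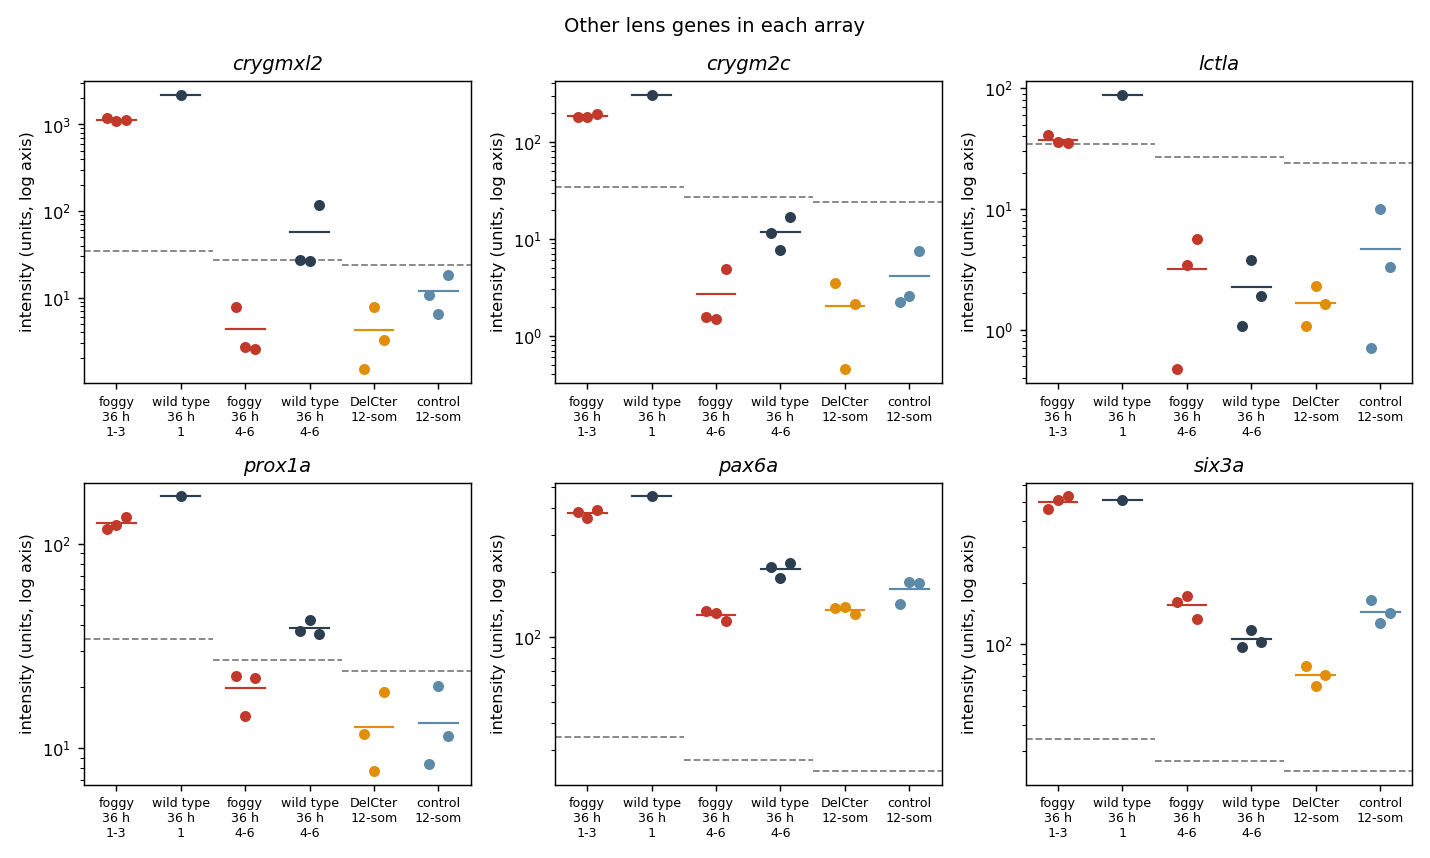
Intensity of 3 further lens structural genes and 3 lens transcription factor genes in each of the 16 arrays (units, log axis), with a short line at the group mean and a dashed line at the highest tag control of each set. Crygmxl2, crygm2c and lctla are above the dashed line in numbers 1 to 3, where the wild-type array is highest, and crygmxl2 reaches 117 units in 1 wild-type array of numbers 4 to 6, while pax6a and six3a are above it in all groups.

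Markers of other tissues moved with the lens genes in numbers 4 to 6. The 12 retina markers summed to 307 to 391 units in foggy arrays, against 416 to 533 units in wild-type arrays, and 4 of the 7 tested fell while 1 rose. The 5 pigment markers summed to 43.9 to 53.2 units in foggy arrays, against 1372 to 2385 units in wild-type arrays, with all 5 within the tag range in the mutant and all 4 tested falling. The 7 fast muscle markers summed to 3624 to 5244 units in foggy arrays, against 17789 to 30451 units in wild-type arrays, and all 7 fell. The 7 neuron markers summed to 895 to 1177 units in foggy arrays, against 1597 to 1975 units in wild-type arrays, with 6 of 7 falling. The 5 red blood cell markers summed to 4169 to 6296 units in foggy arrays, against 11965 to 16597 units in wild-type arrays, and all 5 fell. Over all tested probe sets 10.4% were called lower and 9.03% higher in this comparison. The pigment markers passed the filter through the wild-type arrays, so their count only describes them. Slc4a1a of the red blood cell list and rx2 and vsx1 of the retina list were also within the tag range in the foggy arrays but not in the wild-type arrays. The filter may thus fix part of the red blood cell and retina counts too.

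Not all lists went down. The 6 yolk layer and liver markers summed to 33776 to 36976 units in foggy arrays, against 31355 to 34181 units in wild-type arrays, with none of 6 called by limma and 0 at an unadjusted p under 0.05. The 8 epidermis and cornea markers summed to 27967 to 30367 units in foggy arrays, against 23565 to 25349 units in wild-type arrays, with 2 falling and 1 rising. RNA integrity, read as the log2 ratio of the 3′ to the 5′ GAPDH control probe set, was 0.52 to 0.84 in foggy arrays and 0.52 to 0.61 in wild-type arrays of numbers 4 to 6. The part of these tissues and of RNA integrity in the lens differences was not tested.

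In numbers 1 to 3, the 12 retina markers summed to 3086 to 3209 units in arrays labelled foggy, against 3759 units in wild-type array 1. The 5 pigment markers summed to 897 to 948 units, against 1856 units in wild-type array 1, and the 7 neuron markers to 7801 to 8167 units, against 7432 units. Fast muscle markers summed to 1315 to 1397 units in arrays labelled foggy, against 3582 units in wild-type array 1, and red blood cell markers to 1440 to 1578 units, against 6181 units. Called lower were 3 of 5 red blood cell, 3 of 7 fast muscle and 2 of 10 retina markers tested, and no pigment or neuron marker. Over all tested probe sets 0.673% were called lower. Of the 10 retina markers tested, 5 had a log2 difference below 0 and 5 above it. The summed lens, retina, pigment, muscle and red blood cell levels of the arrays labelled foggy lay below wild-type array 1 in this set too, and the neuron sum lay above it. These sums are set against 1 wild-type array, and their relation to the supt5h level was not tested.

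**Figure D4:**
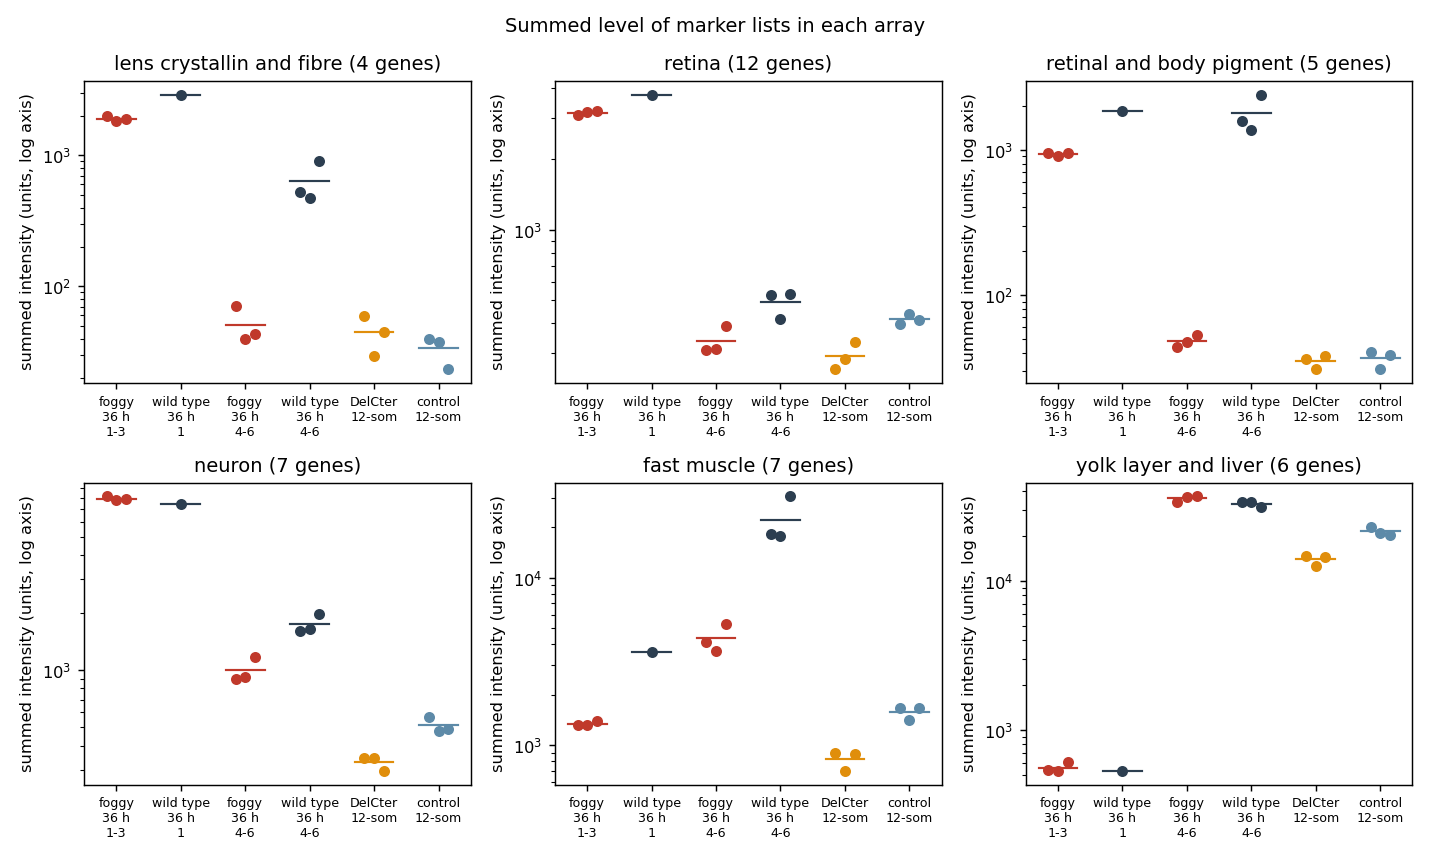
Summed intensity of the 4 lens genes and of 5 marker lists in each of the 16 arrays (units, log axis), with the brightest probe set of each gene and a short line at the group mean. The lens sum is 39.8 to 70.6 units in foggy arrays 4 to 6, against 470 to 909 units in wild-type arrays 4 to 6, and the pigment sum is separated in the same way, while the yolk layer and liver sum is 529 to 607 units in numbers 1 to 3 and 31355 to 36976 units in numbers 4 to 6.

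The 5 probe sets whose profile over all 16 arrays was most like that of crybb1 included 3 of pigment cell genes. Slc2a15b, a sugar transporter family gene known for pigment cells in medaka, had a Pearson r of 0.992 with crybb1. Gch2, an enzyme gene of pteridine pigment synthesis and a member of the pigment list above, had 0.987 and 0.972 in its 2 probe sets, and wu:fc46h12 and the calcium exchanger gene cax1 had 0.977 and 0.968. These r values are over log2(intensity + 16) in arrays that share groups and number sets, so the 16 points are not independent. For cryba4 the nearest were sox11b and otpb, transcription factor genes of developing neurons, both at 0.989, then si:ch211-251b21.1 at 0.988, the glycogen phosphorylase gene pygmb at 0.987 and the sodium pump subunit gene atp1a1b at 0.986. For bfsp2 they were zgc:112285 at 0.985, the matrix proteoglycan gene aspn at 0.983, si:ch211-255g12.6 at 0.960, the steroid enzyme gene hsd11b2 at 0.959 and cpne2 at 0.955.

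Between the lens genes themselves r over the 16 arrays was 0.847 for crybb1 with cryba4, 0.864 for cryba4 with bfsp2 and 0.605 for crybb1 with bfsp2. Over the 6 arrays of numbers 4 to 6, where r mostly reflects 2 groups, it was 0.954 for crybb1 with cryba4. There the 5 probe sets nearest to crybb1 were those of sh3glb2b, fignl2, rbfox1l, otomp and hmgb1b, at r of 0.996 to 0.998. Those nearest to cryba4 were cahz, a carbonic anhydrase gene of red blood cells, at 0.999, then the fast muscle troponin gene tnni2b.1, actl6a, hapln1a and ndrg1a, the last at 0.995. Bfsp2 was within the tag range in all 6, so its profile was not compared there. Gja8b exceeded the tag range in only 2 arrays, too few for its profile to be compared.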

How the data were processed

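Total RNA of 16 zebrafish samples was read on 1-colour Affymetrix arrays. The deposited values are intensity per probe set on a linear scale, scaled by the authors to the same 2% trimmed mean in every array (150.0 units), as found from the values; the sources used here do not give the summary method. Groups came from the titles and descriptions; every sample's source field also names adrenal medulla, and the descriptions were followed. Gene names came from the platform annotation, updated through Entrez numbers in a RefSeq table of GRCz12tu. Printed levels are as deposited. Tests used log2(value + 16). The 36 h arrays, whose log2 medians differed by 0.373 (over 0.2), were quantile normalized together, and the other fits used deposited values. Log2 differences understate changes of dim genes. Probe sets below the 30th percentile of the mean of a fit were left out, leaving 10851. Limma 3.58.1 in R 4.3.3 (lmFit, eBayes, 2-sided) gave p-values, adjusted by Benjamini-Hochberg over all probe sets tested and called under 0.05. Folds given as "at least" are ratios of geometric means of deposited values with dim values of the lower group raised to the highest tag control. Those of gja8b and crygmxl2 were taken likewise but are no lower limits, as a wild-type value lay within the tag range. The fits were tested on simulated data.

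The genes and lists were chosen with earlier results of these data known. Named were the 4 genes, every lens list gene called in numbers 4 to 6, supt5h, and the 5 probe sets with the closest profile to each gene that exceeded the highest tag control in at least 3 arrays (over numbers 4 to 6 not for bfsp2, which did not exceed it there). Other lens list genes given by name were chosen after their values were seen. List counts used the brightest probe set of each gene. Alternatives were the other normalization, a robust prior with an intensity trend, pseudocounts of 1 and 64, no filter or one at the 60th percentile, replicate and set blocks, a single fit of all 16 arrays, and each array left out.

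Title numbers are shared between groups. Deviations from group means of same-numbered arrays correlated at 0.691 to 0.903 over all 36 h arrays, but at up to 0.913 with another number. The r was 0.181 to 0.237 at the 12-somite stage, above the highest r with another number (-0.103 to -0.0478). Within numbers 4 to 6 it was 0.0611, 0.278 and 0.355 for numbers 4, 5 and 6. The highest r with another number was 0.186, 0.0529 and -0.0808 there, so numbers 5 and 6 were more alike and number 4 was not. No main fit paired arrays by number, and the replicate number was a block only in an alternative setting. No sequence of these genes was used here.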

Additional observations from a re-analysis of the deposited data

Results flagged for a closer look

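Among 4 lens genes and the groups of 4 to 6 arrays at 36 h, 8 sets of values were checked for an array far from the others by Dixon's criterion, which chance alone meets in about 1 of 20. In the wild type, cryba4 in array 1 (2436 units) and bfsp2 in array 1 (179 units) stood apart from arrays 4 to 6. Array 1 is the only wild-type array of numbers 1 to 3.

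The effect of the foggy label differed between numbers 4 to 6 and numbers 1 to 3 for crybb1, by -2.18 on the log2 scale (limma adjusted p = 0.00121), and for cryba4, by -2.09 (limma adjusted p = 0.0474). Crybb1 was lower in 3 of 3 arrays labelled foggy in both sets, as was cryba4. Values labelled foggy also lay wholly below wild-type values for 18.3% of tested probe sets in numbers 4 to 6. In numbers 1 to 3, with 1 wild-type array, they did so for 28.2%. The foggy values of crybb1 in numbers 4 to 6 were within the tag range and those of cryba4 at its upper edge, which limits how well the size of these differences is known.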

How the results depend on the processing

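In numbers 4 to 6 crybb1 and cryba4 were called lower in all 8 other settings and without each array in turn, with log2 differences of -4.01 to -2.12 and -3.16 to -1.84 over the settings. There the replicate block called 2731 probe sets against 2107, and every call of the 3 lens genes tested was kept. Leaving out 1 array gave 1174 to 1604 calls, the lowest counts being 1174 when wild type 4 was left out, 1189 for foggy 5, 1243 for foggy 4 and 1276 for wild type 5. In numbers 1 to 3 the 79 calls became 42 as deposited, 44 with a pseudocount of 1, 138 with 64, and 31 to 42 without 1 array labelled foggy. Leaving out wild type 1 was not possible there. Over all 10 arrays the 24 calls became 6 as deposited, 12 at the 60th percentile and 1147 in 1 fit over all 16 arrays. They became 1023 with the replicate block, which left out foggy-labelled arrays 2 and 3, and 1430 with the set block. Without 1 array they became 1 to 267, with 267 without wild type 1. Cryba4 there ranged from -1.33 to 0.0504 without 1 array, the sign turning without wild type 1. The difference between sets had 358 calls, 614 with a pseudocount of 64, 573 with the intensity trend and 170 to 438 without 1 array. There cryba4 was lost with no filter (limma adjusted p = 0.0815), pseudocounts of 1 (0.0598) and 64 (0.0796) and the trend (0.104), and bfsp2 passed with 64 (0.00452). Between the arrays labelled foggy of the 2 sets, 7659 calls became 4680 at the 60th percentile, and between stages 6200 became 3981, both with fewer probe sets tested. At 12 somites 1223 became 750 with no filter and 597 to 923 without 1 array, and supt5h, not called, ranged from -0.0165 to 0.118, the sign turning without Foggy(DelCter) 1. The replicate block changed no call of the lens genes there, none being tested. Apart from the 2 settings that test fewer probe sets, the causes were not tested. Signal close to background limits bfsp2, gja8b and all lens genes at 12 somites.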
